A study of Mus musculus with 21 samples.

Results

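The trophoblast is the outer epithelium of the mouse blastocyst and gives rise to most of the placenta, and it separates early from the inner cell mass, from which embryonic stem cells are derived. CDX2, TFAP2C, GATA3 and ELF5 are transcription factors of the trophoblast lineage, HAND1 acts in trophoblast giant cells, and KRT7, KRT8, KRT18 and KRT19 are keratins of its epithelium. Several of these genes are also used elsewhere, such as Hand1 in mesoderm and heart and the keratins in other simple epithelia. The 9 genes Cdx2, Elf5, Hand1, Tfap2c, Gata3, Krt7, Krt8, Krt18 and Krt19 were taken by symbol from the 23412 symbols of the count data. This list was chosen with earlier results of these data known, so its counts beside all genes are a description, not a test. All 9 were found, and 8 of them passed the filter on low counts and were tested among 14963 genes. Elf5 held 0 to 6 reads per library and was not tested.

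Poly-A RNA was sequenced from v6.5 mouse embryonic stem cells (mESCs), a male line grown on gelatin, in 7 conditions with 3 libraries each, all harvested 48 h after transfection with 50 nM siRNA. WT mESCs received siGLO, the transfection control, or siPds5b. Pds5b-KO mESCs received siGLO, and Pds5a-KO mESCs received siGLO, siPds5b, siStag1 or siStag2, so that every knockout control also carried an siRNA. PDS5A and PDS5B are paralogous proteins that bind the cohesin ring, and STAG1 and STAG2 are alternative subunits of that ring. Each knockout was made with CRISPR-Cas9, and the libraries of a genotype came from a single clone. The loss of the gene and other traits of the clone therefore cannot be told apart, and p-values measure only the spread between these libraries.

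Total counts were between 17311090 and 23989198 per library, with a median of 19628146. Among 21 pairs of libraries of a condition, 0 held identical counts. Pds5b RNA was at 0.349-fold of WT siGLO in WT siPds5b and at 0.124-fold in Pds5b-KO siGLO, and at 0.382-fold of Pds5a-KO siGLO in Pds5a-KO siPds5b. Stag1 RNA was at 0.237-fold and Stag2 RNA at 0.269-fold of Pds5a-KO siGLO after their own siRNA. Pds5a RNA was at 0.844-fold of WT siGLO in Pds5a-KO siGLO, which did not pass the test (edgeR adjusted p = 0.0415). It was called lower in Pds5a-KO siPds5b than in WT siGLO (0.752-fold, adjusted p = 0.000605). It was also lower in Pds5a-KO siGLO than in Pds5b-KO siGLO (0.748-fold, adjusted p = 0.000965). With siStag1 and siStag2 it was at 0.884- and 0.885-fold of WT siGLO, not called. These changes are small, so its RNA level by itself does not check that label. The ribosomal RNA gene Rn45s took 2.68% of the counts in Pds5a-KO siStag2 replicate 3 and at most 1.44% in the other libraries.

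Levels are given as normalized read counts, scaled to a common library size of 19816922, and changes as log2 fold changes with their standard error (SE) and an adjusted p from edgeR, called when under 0.01. In WT siGLO mESCs the order of the 9 genes was compared per kilobase of annotated exon. Krt8 and Krt18 were the highest, at 877 ± 28.6 and 793 ± 15.4 normalized reads per kb (SD, n = 3). Tfap2c followed at 169.5 ± 15.1 and Krt19 at 129.5 ± 4.91 per kb. These 4 genes lay apart from each other by more than the sum of their SDs. Hand1 at 14.4 ± 2.06, Krt7 at 11.3 ± 2.34, Gata3 at 6.72 ± 2.95 and Cdx2 at 4.41 ± 2.18 per kb were far lower, and neighbors in that order did not differ beyond their spread. Elf5 was the lowest, at 0.188 ± 0.325 per kb. The exon length is the union of all annotated transcripts and reaches 7.05 kb for Krt7, so its level per kb depends on which of these exons were used. Among the 9 genes, control mESCs thus held the Krt8 and Krt18 pair highest, followed by Tfap2c and Krt19. Hand1, Krt7, Gata3, Cdx2 and Elf5 were at a low level.

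The plot of the 9 genes by library shows all values, with replicates marked.

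**Figure D1:**
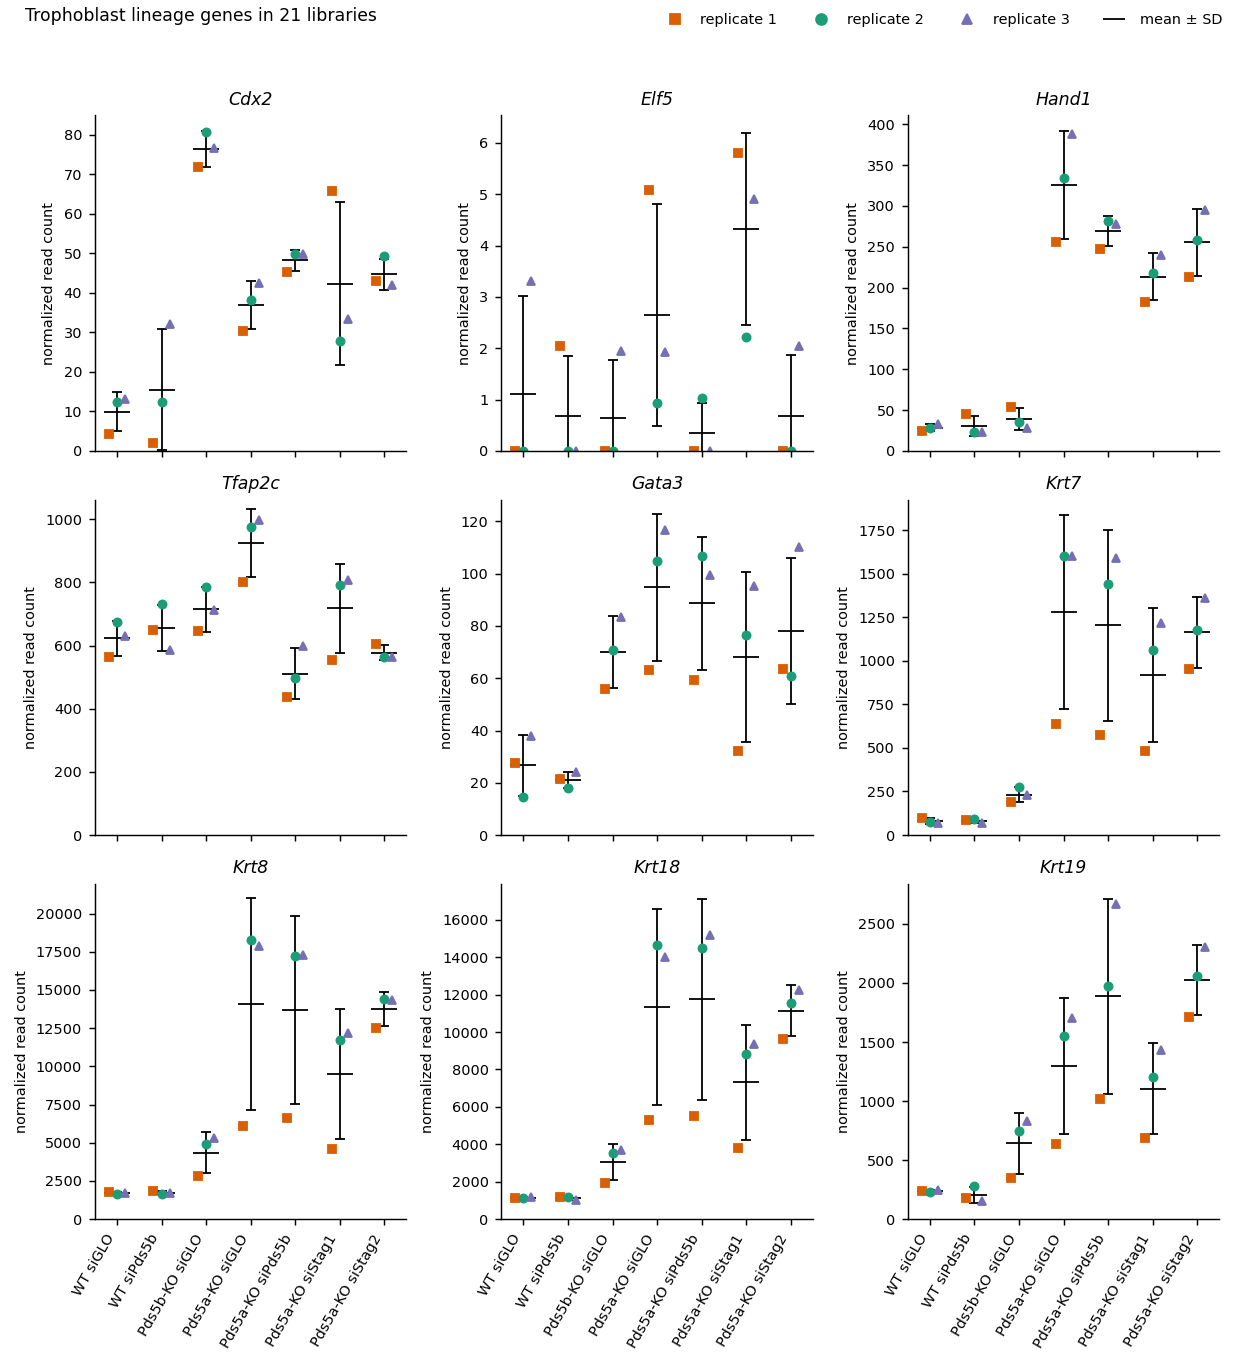
Normalized read count (vertical axes, linear, from 0) of each of the 9 genes in the 21 libraries, grouped by condition; symbols mark replicates 1, 2 and 3, and the bar with whiskers is the mean ± SD of 3 libraries. Cdx2 was highest in Pds5b-KO siGLO (71.8 to 80.8), Hand1 and the keratins were highest in Pds5a-KO conditions, and Tfap2c fell from 800 to 998 in Pds5a-KO siGLO to between 437 and 597 after siPds5b.

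In Pds5a-KO siGLO mESCs, all 8 tested genes were called higher than in WT siGLO and 0 lower, and every Pds5a-KO siGLO library was above every WT siGLO library in each, as for 20.4% of all genes. The keratins and Hand1 rose most, from 16.0-fold for Krt7 to 5.39-fold for Krt19, and Tfap2c least, at 1.48-fold. Over all 14963 genes, 17.8% were called in this comparison and 9.63% were called higher. The median log2 fold change of the 8 genes was 2.73, against 0.00 over all genes. In bulk RNA, a change in the number of cells that express a gene and a change in its level per cell cannot be told apart. In Pds5b-KO siGLO mESCs, 2 of the 8 genes were called, Cdx2 and Gata3, both higher. There 18.2% of all genes were called and 9.64% were called higher, and the median log2 fold change was 1.39 for the 8 genes and 0.00 for all genes. Both comparisons, and the others against WT, share the 3 WT siGLO libraries.

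Cdx2 (chr5:147300805-147307270, minus strand, mm10) encodes a homeobox factor that marks the trophectoderm. Its normalized counts in replicates 1, 2 and 3 were 4.30, 12.4 and 13.2 in WT siGLO, 71.8, 80.8 and 76.7 in Pds5b-KO siGLO, and 30.5, 38.4 and 42.4 in Pds5a-KO siGLO. The libraries of these conditions did not overlap, and those of Pds5b-KO siGLO stood highest. Cdx2 was 7.67-fold higher in Pds5b-KO siGLO than in WT siGLO (log2 2.94 ± 0.46 SE, adjusted p = 5.27e-05), and 3.73-fold higher in Pds5a-KO siGLO (log2 1.90 ± 0.49, adjusted p = 0.00515). The second of these calls was lost in 5 of 6 fits that left out 1 library (adjusted p from 0.0104 to 0.0349), all but the one without Pds5a-KO siGLO replicate 1. With both knockouts set side by side, Cdx2 was lower in Pds5a-KO siGLO (log2 -1.04 ± 0.39), which was not called (adjusted p = 0.0451). Raw counts of Cdx2 were 2 to 28 in the WT libraries, so its folds rest on few reads.

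Hand1 (chr11:57828705-57832818, minus strand) encodes a basic helix-loop-helix factor needed for trophoblast giant cells. It had 24.9, 28.2 and 33.1 normalized counts in WT siGLO and 256, 334 and 388 in Pds5a-KO siGLO. In Pds5b-KO siGLO it had 53.8, 34.9 and 28.1, which overlapped WT siGLO. Hand1 was 11.3-fold higher in Pds5a-KO siGLO than in WT siGLO (log2 3.50 ± 0.23, adjusted p = 2.22e-10), and its log2 fold change in Pds5b-KO siGLO was 0.43 ± 0.28 (adjusted p = 0.247). The direct comparison of both knockouts gave 8.39-fold higher Hand1 in Pds5a-KO siGLO (log2 3.07 ± 0.23, adjusted p = 7e-10). Of the transcription factors tested, Hand1 was the one called in this direct comparison.

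Gata3 (chr2:9857078-9890034, minus strand) encodes a zinc finger factor of the trophectoderm. Its normalized counts were 27.5, 14.6 and 38.0 in WT siGLO, 63.0, 105 and 117 in Pds5a-KO siGLO and 56.0, 70.8 and 83.5 in Pds5b-KO siGLO. Every knockout library was above every WT siGLO library. Gata3 was 3.46-fold higher in Pds5a-KO siGLO (log2 1.79 ± 0.37, adjusted p = 0.00104) and 2.56-fold higher in Pds5b-KO siGLO (log2 1.36 ± 0.38, adjusted p = 0.00999). The call in Pds5b-KO lay just under the threshold and was lost in 5 of 6 fits that left out 1 library (adjusted p from 0.0135 to 0.0468), all but the one without WT siGLO replicate 3. Between the knockouts the difference was 0.43 ± 0.34 on the log2 scale (adjusted p = 0.348).

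Tfap2c (chr2:172549593-172558622, plus strand) encodes an AP-2 factor that mESCs also express. Its normalized counts were 565, 675 and 631 in WT siGLO, 645, 785 and 712 in Pds5b-KO siGLO, and 800, 975 and 998 in Pds5a-KO siGLO. WT siGLO and Pds5b-KO siGLO overlapped, while the Pds5a-KO siGLO libraries were above both. The rise in Pds5a-KO siGLO was 1.48-fold (log2 0.57 ± 0.13, adjusted p = 0.00212), and the call was lost without WT siGLO replicate 1, without Pds5a-KO siGLO replicate 2 or without its replicate 3 (adjusted p = 0.0158, 0.0127 and 0.0132). In Pds5b-KO siGLO the log2 fold change was 0.20 ± 0.13 (adjusted p = 0.263).

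Elf5 (chr2:103411688-103450989, plus strand) encodes an ETS factor of trophoblast stem cells whose promoter is known to be methylated in embryonic stem cells. It held 0, 0 and 4 reads in WT siGLO, 5, 1 and 2 in Pds5a-KO siGLO and 0, 0 and 2 in Pds5b-KO siGLO. The highest count was 6, in Pds5a-KO siStag1 replicate 1, so no fold change is given and a difference was not detectable at this depth.

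Krt8 and Krt18 are the partners of 1 keratin filament, a type II and a type I chain that assemble as a pair. The 2 genes are neighbors on chromosome 15 (Krt8 at chr15:101996698-102004482, minus strand, and Krt18 at chr15:102028180-102032027, plus strand), 23.7 kb apart with 0 annotated genes between them and transcribed away from each other. Krt7 (chr15:101411043-101430313, plus strand), a type II keratin of simple and glandular epithelia, lies 566.38 kb from Krt8 with 42 annotated genes between them, 23 of them keratins. Krt19 (chr11:100140810-100148665, minus strand), a type I keratin, is on another chromosome. For the 3 keratins of chromosome 15, the 250 bases before the RefSeq start sites (GRCm38.p6, 5′ to 3′ on the strand of the gene) are shown. Krt19 moved with these 3 genes (Pearson r from 0.960 to 0.978 over the 21 libraries) but had no window in the reference. Capitals mark matches to the AP-2 motif GCCNNNGGC or to the GC box GGGCGG, on either strand.
Krt7, chr15:101412153-101412402, plus strand: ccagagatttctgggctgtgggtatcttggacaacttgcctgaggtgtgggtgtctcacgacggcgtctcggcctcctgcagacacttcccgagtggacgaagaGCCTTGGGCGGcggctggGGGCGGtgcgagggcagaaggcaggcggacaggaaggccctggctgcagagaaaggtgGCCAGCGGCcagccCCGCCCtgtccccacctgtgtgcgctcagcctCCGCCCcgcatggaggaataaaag
Krt8, chr15:102004343-102004592, minus strand: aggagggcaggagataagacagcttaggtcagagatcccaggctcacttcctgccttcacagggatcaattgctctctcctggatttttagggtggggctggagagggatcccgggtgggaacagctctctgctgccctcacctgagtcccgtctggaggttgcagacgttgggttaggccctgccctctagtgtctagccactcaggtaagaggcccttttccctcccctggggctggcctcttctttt
Krt18, chr15:102027966-102028215, plus strand: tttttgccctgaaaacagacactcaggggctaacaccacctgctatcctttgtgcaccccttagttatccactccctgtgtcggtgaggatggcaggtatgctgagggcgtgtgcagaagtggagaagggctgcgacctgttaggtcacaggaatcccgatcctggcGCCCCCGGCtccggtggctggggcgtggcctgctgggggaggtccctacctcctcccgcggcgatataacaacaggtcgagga
The Krt7 window held 2 AP-2 matches, starting 146 and 70 bases before the start site, and 4 GC boxes, the first of which overlapped an AP-2 match. The Krt18 window held 1 AP-2 match, 83 bases before its start, and the Krt8 window held none of either. No window of the 3 held GGAATG, the TEAD motif, TGANTCA, the AP-1 motif, or TATAAA. Of 32851 windows of the same length in the reference table, 13.7% held the AP-2 motif, 32.7% the GC box, 12.6% the TEAD motif, 6.75% the AP-1 motif and 12.4% TATAAA. None of these 5 motifs was found in all 3 windows. These are letter matches, not measured binding sites.

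The Krt8 counts were 1762, 1654 and 1734 in WT siGLO, 6091, 18271 and 17867 in Pds5a-KO siGLO, and 2802, 4926 and 5291 in Pds5b-KO siGLO. Those of Krt18 were 1139, 1118 and 1162 in WT siGLO, 5303, 14671 and 14012 in Pds5a-KO siGLO, and 1948, 3525 and 3672 in Pds5b-KO siGLO. In both genes the order of the conditions was the same and no libraries overlapped, with replicate 1 of each knockout well below its other replicates. Krt8 was 8.20-fold higher in Pds5a-KO siGLO than in WT siGLO (log2 3.04 ± 0.48, adjusted p = 0.000273) and Krt18 was 9.94-fold higher (log2 3.31 ± 0.47, adjusted p = 0.000112). In a fit to these 6 libraries alone, Krt8 was no longer called (adjusted p = 0.0154). The ratio of Krt8 to Krt18 per kb was between 0.836 and 1.21 in the 21 libraries. It was 1.11 ± 0.026 (SD, n = 3) in WT siGLO, 1.05 ± 0.018 in Pds5b-KO siGLO and 0.898 ± 0.049 in Pds5a-KO siGLO, so that of these 3 conditions Krt18 exceeded Krt8 per kb in Pds5a-KO siGLO.

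Krt7 went from 98.8, 72.1 and 68.6 normalized counts in WT siGLO to 639, 1601 and 1602 in Pds5a-KO siGLO, and had 189, 276 and 228 in Pds5b-KO siGLO. Krt19 went from 237, 233 and 251 to 638, 1547 and 1700 in Pds5a-KO siGLO, and had 348, 747 and 835 in Pds5b-KO siGLO. In both genes the libraries of Pds5a-KO and Pds5b-KO were all above those of WT siGLO, and those of Krt19 overlapped between the knockouts. The rise in Pds5a-KO siGLO was 16.0-fold for Krt7 (log2 4.0 ± 0.49, adjusted p = 3.08e-05) and 5.39-fold for Krt19 (log2 2.43 ± 0.46, adjusted p = 0.00116). Krt19 was not called in a fit to the 6 libraries alone (adjusted p = 0.014). How reads that match several keratin genes or pseudogenes were counted is not given in the sources used here.

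In Pds5b-KO siGLO mESCs the keratins were between 2.53- and 2.88-fold of WT siGLO, and none of the 4 was called. Their log2 fold changes were 1.53 ± 0.52 for Krt7, 1.34 ± 0.46 for Krt8, 1.42 ± 0.45 for Krt18 and 1.42 ± 0.46 for Krt19, with adjusted p from 0.0259 to 0.0374. All 4 genes had no overlap between Pds5b-KO siGLO and WT siGLO libraries, as did 22.8% of all genes in the higher direction. DESeq2 called all 4 (adjusted p from 0.00182 to 0.00969). So did edgeR without replicate 1 of every condition, an alternative added after the values had been seen (log2 from 1.59 to 1.84, adjusted p from 1.49e-13 to 2.67e-04).

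The direct comparison of Pds5a-KO siGLO with Pds5b-KO siGLO called 3 of the 8 genes, Hand1, Krt7 and Krt18, all higher in Pds5a-KO. Of all genes, 19.2% were called and 9.74% were higher. Krt7 was 5.54-fold higher (log2 2.47 ± 0.44, adjusted p = 0.000707) and Krt18 3.72-fold higher (log2 1.89 ± 0.44, adjusted p = 0.00477). Krt8 differed by 1.70 ± 0.45 on the log2 scale (adjusted p = 0.0107) and Krt19 by 1.01 ± 0.43 (adjusted p = 0.0852), and neither was called. The Krt18 call was lost in 5 of 6 fits that left out 1 library, all but the one without Pds5a-KO siGLO replicate 1, with adjusted p up to 0.0275, and those of Krt7 and Krt18 were lost in a fit to the 6 libraries alone (adjusted p = 0.0194 and 0.0694). That fit instead called Cdx2 lower in Pds5a-KO siGLO (log2 -1.06, adjusted p = 0.00379), and DESeq2 called Krt8 higher (adjusted p = 0.000864). Without replicate 1 of every condition, an alternative added after the values had been seen, 6 of the 8 genes were called.

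**Figure D2:**
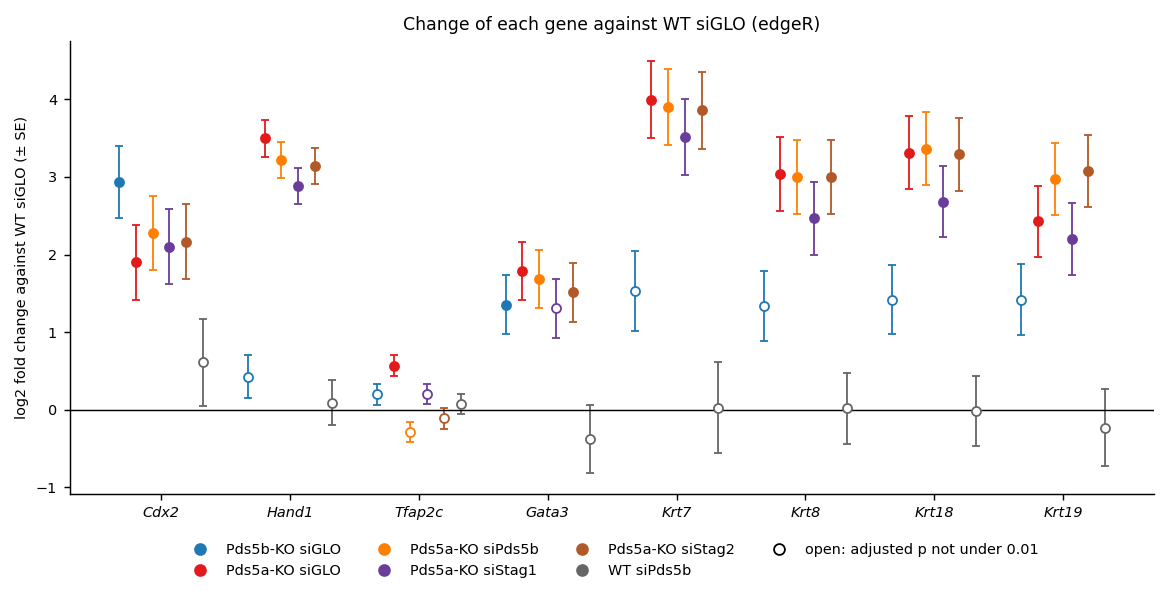
Log2 fold change against WT siGLO (vertical axis, ± SE from edgeR, 3 libraries per condition) of the 8 tested genes in 6 conditions; filled points passed an adjusted p of 0.01 and open points did not. In the 4 Pds5a-KO conditions Hand1 and the keratins lay between 2.20 and 4.0, while in Pds5b-KO siGLO the keratins lay between 1.34 and 1.53 and Cdx2 at 2.94.

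Knockdown of Pds5b in WT mESCs, with its RNA at 0.349-fold of WT siGLO, tested whether depletion of the second paralog reached these genes. The counts do not measure how much PDS5B protein was left. None of the 8 was called, 0 had an unadjusted p under 0.05, and DESeq2 called 0. Of all genes, 1 (0.00668%) was called by edgeR, the siRNA target Pds5b itself (adjusted p = 4.93e-08). The lack of calls is therefore not particular to the 8 genes. Krt8 had 1831, 1674 and 1707 normalized counts in WT siPds5b and Krt18 had 1200.2, 1156 and 1034, which overlapped WT siGLO. Log2 fold changes were between -0.37 ± 0.44 for Gata3 and 0.61 ± 0.56 for Cdx2. Cdx2 was the most variable there, with 2.04, 12.3 and 32.1 normalized counts.

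In Pds5a-KO mESCs, siPds5b, siStag1 or siStag2 was given in place of siGLO. Against WT siGLO, 7 of the 8 genes were called higher in Pds5a-KO siPds5b (32.0% of all genes called, 17.4% higher), 6 in Pds5a-KO siStag1 (20.0% called, 10.6% higher) and 7 in Pds5a-KO siStag2 (30.1% called, 16.2% higher). Tfap2c was not called in any of these, and Gata3 was not called with siStag1 (log2 1.31 ± 0.38, adjusted p = 0.0121). DESeq2 (adjusted p = 0.00294), edgeR with a replicate block (0.000818) and edgeR without replicate 1 of every condition (0.00062) did call Gata3 there. The last of these alternatives was added after the values had been seen. Hand1 was between 7.38- and 9.30-fold, Krt7 between 11.4- and 14.9-fold, Krt8 between 5.52- and 8.01-fold, Krt18 between 6.42- and 10.3-fold and Krt19 between 4.59- and 8.41-fold of WT siGLO in the 3 conditions. In each of these 5 genes siStag1 gave the lowest fold of the 3. With siStag1, the Cdx2 call was lost without WT siGLO replicate 1 (adjusted p = 0.0156) or without Pds5a-KO siStag1 replicate 1 (adjusted p = 0.0195), in which Cdx2 had 65.9 normalized counts against 27.8 and 33.4 in its other replicates. The Krt19 call with siStag1 was lost without WT siGLO replicate 1 or Pds5a-KO siStag1 replicate 3 (adjusted p = 0.0103 and 0.0101), and those of Krt8 and Krt18 in a fit to the compared conditions alone (adjusted p = 0.0162 and 0.0102). The Gata3 call with siStag2 was lost without WT siGLO replicate 1 or 2 or Pds5a-KO siStag2 replicate 3 (adjusted p from 0.0122 to 0.025).

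Against Pds5a-KO siGLO itself, which the 3 comparisons share, Tfap2c was the gene that moved. It had 437, 499 and 597 normalized counts in Pds5a-KO siPds5b and 606, 563 and 564 in Pds5a-KO siStag2, all below the 800, 975 and 998 of Pds5a-KO siGLO. With siStag1 it had 555, 790 and 807, which overlapped Pds5a-KO siGLO. Tfap2c fell to 0.552-fold with siPds5b (log2 -0.86 ± 0.13, adjusted p = 9.3e-05) and to 0.625-fold with siStag2 (log2 -0.68 ± 0.13, adjusted p = 0.00323). Of all genes, 7.59% were called with siPds5b and 3.59% were lower, and 2.24% were called with siStag2 and 1.27% were lower. The siStag2 call was lost in 5 of 6 fits that left out 1 library (adjusted p from 0.011 to 0.0202), all but the one without Pds5a-KO siGLO replicate 1. With siStag1 the log2 fold change of Tfap2c was -0.37 ± 0.13 (adjusted p = 0.267).

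The other 7 genes were not called after any siRNA in Pds5a-KO mESCs. For siStag1, where 0 of 8 genes were called by edgeR or DESeq2, 2 had an unadjusted p under 0.05 and 0.0936% of all genes were called. Hand1 had 182, 218 and 240 normalized counts with siStag1, each below the 256, 334 and 388 of Pds5a-KO siGLO, and its log2 fold change was -0.61 ± 0.19 (adjusted p = 0.181). Krt8 had 4566, 11729.9 and 12151 with siStag1 (log2 -0.57 ± 0.44, adjusted p = 0.7), 6596, 17193 and 17299 with siPds5b (log2 -0.04 ± 0.44) and 12502, 14432 and 14348 with siStag2 (log2 -0.03 ± 0.44). Replicate 1 lay apart from the others in the keratins. Without replicate 1 of every condition, Krt8 and Krt18 were called lower with siStag1 (log2 -0.59 and -0.66, adjusted p = 1.42e-05 for each) and Krt8 with siStag2 (log2 -0.33, adjusted p = 0.00429). Krt19 had 1712, 2057 and 2305 normalized counts with siStag2, all above Pds5a-KO siGLO (log2 0.64 ± 0.41, adjusted p = 0.356), so the keratins did not keep one order with siStag2. With the replicate number as a block, 48 genes in all were called for siStag1 instead of 14 and 677 for siStag2 instead of 335, and the calls of the 8 genes were the same.

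The effect of siPds5b was also compared between genotypes. Tfap2c changed by 0.07 ± 0.13 on the log2 scale in WT mESCs and by -0.86 ± 0.13 in Pds5a-KO mESCs, and the difference of these effects was -0.93 ± 0.19 (adjusted p = 0.00493). It was the 1 of 8 genes called for this interaction, for which 1.48% of all genes were called and 0.896% in the lower direction. The call was lost in 8 of 12 fits that left out 1 library, with adjusted p up to 0.0172 and log2 differences from -0.83 to -0.94 in those 8. They were the fits without WT siGLO replicate 1 or 3, WT siPds5b replicate 1 or 2, Pds5a-KO siGLO replicate 2 or 3, or Pds5a-KO siPds5b replicate 1 or 2.

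The keratins differed between replicates of a condition in a pattern shared by the Pds5a-KO and Pds5b-KO conditions but not by WT. Replicate 1 had the lowest count of Krt7, Krt8, Krt18 and Krt19 in every Pds5a-KO and Pds5b-KO condition, and in WT siGLO and WT siPds5b it was the lowest for none of them. Krt8 in replicate 1 was at 0.337 of the mean of replicates 2 and 3 in Pds5a-KO siGLO, at 0.382 with siPds5b and with siStag1, at 0.548 in Pds5b-KO siGLO and at 0.869 with siStag2. In WT siGLO that ratio was 1.04 and in WT siPds5b 1.08. The summed level of 10 primitive endoderm markers was highest in replicate 1 of all 7 conditions. It was 8307 in Pds5a-KO siGLO replicate 1 against 3962 and 3983 in replicates 2 and 3, and 11131 in Pds5b-KO siGLO replicate 1 against 6449.5 and 5364. In WT siGLO it was 5217, 3409 and 3672, so every Pds5b-KO siGLO library was above every WT siGLO library. Lama1 made up most of this sum. Its mean normalized count was 3017 in WT siGLO, 4099.5 in Pds5a-KO siGLO and 5726 in Pds5b-KO siGLO, so the sum mainly follows that gene. In Pds5a-KO siStag2, where the keratins were nearly level, the sums were 3599, 3341 and 3263. Normalized Rn45s counts were also higher in replicate 1 of some conditions, at 291819 against 105202 and 121251 in Pds5a-KO siGLO, 278094 against 105339 and 94728 in Pds5b-KO siGLO and 246180.4 against 105735 and 123849 in WT siGLO. With siPds5b and siStag1 in Pds5a-KO, where the keratins were low in replicate 1 too, its Rn45s counts of 166153 and 176041 lay between those of the other replicates. The part of replicate 1, of ribosomal RNA or of cells with these markers in the keratin values was not tested. As a direct measurement, Krt8 in Pds5a-KO siGLO against WT siGLO was higher by 3.41 on the log2 scale without replicate 1 of every condition and by 3.04 with it.

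**Figure D3:**
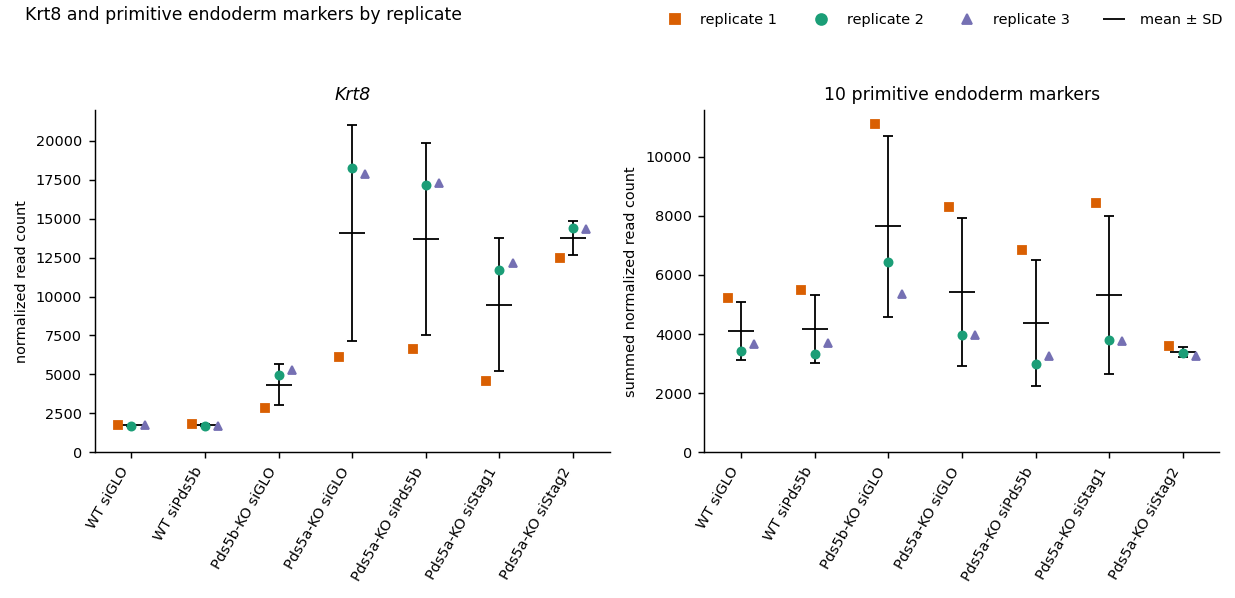
Left, normalized read count of Krt8, and right, summed normalized read count of 10 primitive endoderm markers, in the 21 libraries by condition (linear axes from 0); symbols mark the replicates and bars the mean ± SD of 3 libraries. Replicate 1 was the lowest for Krt8 in the 5 knockout conditions and the highest for the summed endoderm markers in all 7 conditions. In the siGLO conditions Lama1 made up most of that sum.

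Over the 21 libraries, the log2 levels of the 4 keratins ran together, with Pearson r from 0.960 between Krt7 and Krt19 to 0.998 between Krt8 and Krt18. Hand1 and Krt7 had r = 0.945, Gata3 and Krt8 r = 0.893, Cdx2 and Krt8 r = 0.584, and Tfap2c and Krt8 r = 0.166. These r are descriptions over libraries that share conditions and replicates. Tfap2c thus stood apart from the rest of the group. The genes most like Hand1 were Rhox9 and Rhox6, homeobox genes of the X-linked Rhox cluster (r = 0.978 each), and Sfmbt2 (r = 0.977), an imprinted Polycomb group gene of the placenta. Krt19 was most like Cldn7, a claudin of tight junctions (r = 0.979), and Krt7 was most like Krt18 (r = 0.991) and the actin-severing gene Gsn (r = 0.986). For Gata3 they were F3, which encodes tissue factor (r = 0.914), and Peg10, an imprinted placental gene (r = 0.913). For Cdx2 the likeness was weaker, at most r = 0.870 with Mlkl, and for Tfap2c r = 0.849 with Ptgfrn.

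Among 26 other trophoblast genes, 20 were tested. In Pds5a-KO siGLO 7 were called higher and 1 lower than in WT siGLO (17.8% of all genes called), with a median log2 fold change of 0.81. Rhox6 (log2 3.43 ± 0.22, adjusted p = 3.14e-10), Rhox9 (2.98 ± 0.22, 7.57e-10), Fgfr2, the FGF receptor of trophoblast stem cells (2.75 ± 0.19, 7.88e-10), and Id2 (1.70 ± 0.26, 0.000169) were the 4 with the lowest adjusted p. The 1 gene that fell was Eomes, a T-box factor of trophoblast stem cells (log2 -1.25 ± 0.23, adjusted p = 0.000507). In Pds5b-KO siGLO, 1 of these 20 genes was called higher, Fgfr2 (log2 1.78 ± 0.20, adjusted p = 5.81e-07), and 4 lower (18.2% of all genes called). Among the 4 was Ascl2 (log2 -1.49 ± 0.29, adjusted p = 0.000543), a factor of the spongiotrophoblast. Eomes (log2 -0.99 ± 0.23, adjusted p = 0.00329) and Tead4 (log2 -0.54 ± 0.14, adjusted p = 0.0042) were also among them, so Eomes was called lower in both knockouts. The remaining 6 genes had too few reads. Tpbpa and Synb were at 0 in all 21 libraries, and Prl3d1, Prl2c2 and Ctsq held at most 1 read in any, and Dppa1 held at most 2. Other placental genes of the list did have reads. The mean normalized count in WT siGLO and Pds5a-KO siGLO was 95.5 ± 10.2 and 185.8 ± 45.3 (SD, n = 3) for Ascl2. For Dlx3 it was 26.8 ± 5.58 and 75.3 ± 48.6, a wide spread in Pds5a-KO siGLO. The syncytial genes Syna and Gcm1 held 3 to 15 and 0 to 19 reads. Rhox6, Rhox9, Ascl2 and Fgfr2 were also higher in Pds5a-KO siGLO than in Pds5b-KO siGLO. In that comparison 6 of the 20 were called, all higher (9.74% of all genes called higher).

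Of 48 other keratin genes listed, 14 were tested. In Pds5a-KO siGLO 3 were called higher and 1 lower than in WT siGLO (17.8% of all genes called). Krt20, a keratin of gut epithelium, rose (log2 3.44 ± 0.38, adjusted p = 1.1e-06), and Krt42 fell (log2 -0.59 ± 0.14, adjusted p = 0.00242). Their mean normalized counts in Pds5a-KO siGLO were 134 and 353, far below those of Krt8. In Pds5b-KO siGLO 1 of the 14 was called higher and 2 lower (18.2% of all genes called). Krt20 rose (log2 1.74 ± 0.43, adjusted p = 0.00413). Krt42 (-1.53 ± 0.145, 3.68e-08) and Krt17 (-1.19 ± 0.144, 1.37e-06) fell. In Pds5a-KO siPds5b, 8 were called higher and 3 lower than in WT siGLO (32.0% of all genes called). Of the keratins of stratified skin, Krt5 and Krt1 had at most 10 reads in any library and were not tested, while their partners Krt14, with 3 to 41 reads, and Krt10, with 29 to 76, were tested. Of 17 epithelial junction genes, 13 were called higher and 1 lower in Pds5a-KO siGLO, led by Cgn (log2 1.61 ± 0.12, adjusted p = 3.69e-09) and Esrp1 (log2 1.25 ± 0.11, adjusted p = 6.27e-09). In Pds5b-KO siGLO, 9 were higher and 1 lower (18.2% of all genes called).

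The Hippo pathway controls Cdx2 through YAP and TEAD in the blastocyst. Of 20 Hippo genes, 7 were called higher and 2 lower in Pds5a-KO siGLO and 4 higher and 1 lower in Pds5b-KO siGLO. Their median log2 fold change was 0.18 and 0.22. Over all genes, 17.8% were called in Pds5a-KO siGLO and 18.2% in Pds5b-KO siGLO, with 9.63% and 9.64% called higher. The Hippo gene called lower in Pds5b-KO siGLO was Stk3 (log2 -0.38 ± 0.10, adjusted p = 0.00427). The YAP targets Ctgf (log2 1.81 ± 0.10 in Pds5a-KO, adjusted p = 4.77e-12, and 2.28 ± 0.10 in Pds5b-KO, adjusted p = 8.81e-14) and Ankrd1 (1.31 ± 0.16, adjusted p = 1.43e-06, and 1.15 ± 0.16, adjusted p = 9.33e-06) rose in both. Of 10 pluripotent cell markers, 5 were called lower and 0 higher in Pds5a-KO siGLO, among them Klf4 (log2 -1.03 ± 0.08, adjusted p = 1.13e-09) and Esrrb (-0.84 ± 0.08, adjusted p = 2.73e-08), and 5 were lower and 1 higher in Pds5b-KO siGLO. Their summed level was between 87417 and 89135 in WT siGLO and between 65025 and 73296 in Pds5a-KO siGLO. Markers of other cell types were also counted. Of 8 primitive endoderm markers tested, edgeR and DESeq2 called 0 in either knockout, with an unadjusted p under 0.05 for 0 in Pds5a-KO siGLO and 3 in Pds5b-KO siGLO, and their median log2 fold change was 0.45 and 0.77. Of 8 mesoderm markers, a lineage that also uses Hand1, the calls were 0 by either tool in Pds5a-KO siGLO (3 with an unadjusted p under 0.05) and 1 by edgeR, lower, and 2 by DESeq2 in Pds5b-KO siGLO. Those 3 were Foxf1 (log2 1.89 ± 0.60, adjusted p = 0.0197) and Msx2 (1.23 ± 0.40, 0.0266), which rose, and T (-1.99 ± 0.74, 0.0575), which fell. The median log2 fold change of the mesoderm markers was 0.03 in Pds5a-KO siGLO and 0.10 in Pds5b-KO siGLO. Of 7 fibroblast markers tested, 1 was higher in Pds5a-KO siGLO, Twist2 (log2 1.85 ± 0.42, adjusted p = 0.00192), and 2 were lower in Pds5b-KO siGLO, with a median log2 fold change of -0.20 and -0.76. The summed level of 10 fibroblast markers was 429, 1129 and 1667 in replicates 1, 2 and 3 of Pds5a-KO siGLO and 1176, 1235 and 1627 in WT siGLO, which overlapped. In Pds5b-KO siGLO it was 428, 486 and 557, below every WT siGLO library. Most of that sum in WT siGLO was Col1a1 and Col1a2, with mean normalized counts of 536 and 514. The part of these other cell types in the values of the 9 genes was not tested.

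**Figure D4:**
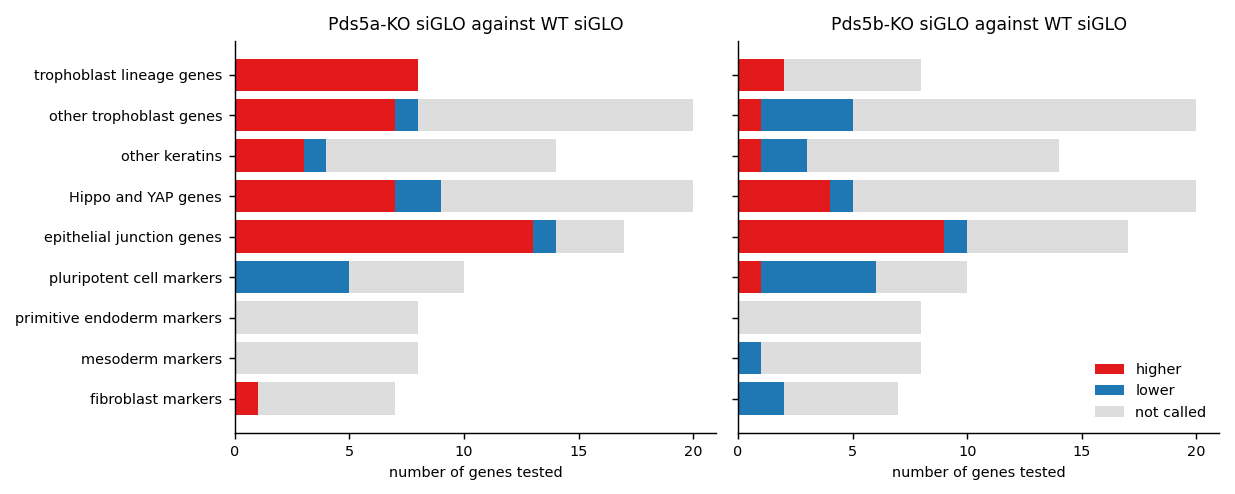
Number of tested genes (horizontal axis) called higher, called lower or not called at an adjusted p under 0.01 (edgeR) in each gene list, in Pds5a-KO siGLO (left) and Pds5b-KO siGLO (right) against WT siGLO. In Pds5a-KO siGLO the 8 trophoblast lineage genes were all higher, and epithelial junction genes were higher in 13 of 17. There 0 of 8 primitive endoderm markers were called, and of all genes 17.8% were called and 9.63% higher.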

How the data were processed

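Libraries were enriched for poly-A RNA, and the authors aligned the reads to the mm10 genome with STAR. They deposited raw counts per gene symbol for each library, with no normalization. The tool that made the counts, its annotation and its use of strand are not given in the sources used here. All 21 libraries were grouped by the genotype and siRNA in their labels, and total counts were 17311090 to 23989198. Genes were kept by edgeR's filter over the 7 conditions (14963 genes), scaled by TMM, and fitted with 1 robust quasi-likelihood model in edgeR 4.0.16 (R 4.3.3), with a mean per condition. The quasi-likelihood F test was adjusted by the Benjamini-Hochberg method over all 14963 genes and called at 0.01. Each SE was taken as the absolute log2 fold change over the root of the F statistic. The model was tested on simulated data.

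The 9 genes and the other gene lists were chosen with earlier results of these data known. From each other list, at most the 4 genes with the lowest adjusted p in a comparison are named with tests, and others by level. Genes of a like pattern are the 3 with the highest Pearson r of log2(normalized count + 1) over 21 libraries, among genes whose average log2 CPM reached 1. Genes named outside these rules were chosen after their values were seen. Positions and exon lengths came from GENCODE M21 for mm10, and promoters from RefSeq, which held 6 of the 9 genes. Plet1 was listed under its older symbol 1600029D21Rik.

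Same-numbered libraries deviated together in every pair (r over 0.1) for WT siPds5b with WT siGLO and for each siRNA in Pds5a-KO with Pds5a-KO siGLO (lowest r 0.343, 0.328, 0.151 and 0.141). The pairing comes from the data, since the labels give only the number. Alternatives were DESeq2 1.42.0, RLE scaling, library size only, no filter, at least 10 counts in every library and the compared conditions alone. The replicate block, a threshold of 0.05 and leaving out each library were further ones. Leaving out replicate 1 of every condition was added after the values had been seen, and its spread rests on the other replicates alone.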

Additional observations from a re-analysis of the deposited data

Results flagged for a closer look

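The effect of siPds5b on Tfap2c differed between genotypes by the test of the difference itself. The log2 effect in Pds5a-KO mESCs minus that in WT mESCs was -0.93 (edgeR adjusted p = 0.00493). This call was lost in 8 of 12 fits that left out 1 library (adjusted p up to 0.0172) and with library size only (adjusted p = 0.0132). The fall was seen in all 3 Pds5a-KO siPds5b libraries, which lay below all 3 Pds5a-KO siGLO libraries, while WT siPds5b and WT siGLO overlapped.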

How the results depend on the processing

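Of 88 results for a gene in a comparison, 36 were called, and 0 of these changed direction under any alternative run. The number of the 8 genes called in Pds5b-KO siGLO against WT siGLO was 2 and depended most on the setting. It was 6 at a threshold of 0.05, with DESeq2 or without replicate 1 of every condition, 5 with a replicate block, 1 with library size only, with no filter or with at least 10 counts in every library (where Cdx2 was not tested), and 1 to 2 when 1 library was left out. For Pds5a-KO siGLO against Pds5b-KO siGLO it was 3, and 6 at a threshold of 0.05, with a replicate block or without replicate 1, and 2 to 4 when 1 library was left out. Without replicate 1, it was 2 instead of 0 for siStag1 and 2 instead of 1 for siStag2 against Pds5a-KO siGLO, and leaving out 1 library gave 0 to 1 for siStag2. For the interaction it was 1, but 0 with library size only and 0 to 1 when 1 library was left out. The count of 8 in Pds5a-KO siGLO against WT siGLO was 6 with the compared conditions alone and 6 to 8 without 1 library. The count of 6 in Pds5a-KO siStag1 against WT siGLO was 4 with the compared conditions alone and 4 to 7 without 1 library. The cause was not tested. In the knockout comparisons the libraries share only a number, and the block moved no other count of the 8 genes by over 1.5 times.

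The 53 reversed values belonged to 21 results that were not called. Leaving out 1 library moved the log2 fold change in WT siPds5b against WT siGLO from -0.49 to 1.16 for Cdx2, -0.31 to 0.26 for Hand1, -0.014 to 0.15 for Tfap2c, -0.083 to 0.22 for Krt7, -0.022 to 0.041 for Krt8 and -0.057 to 0.048 for Krt18. For siPds5b against siGLO in Pds5a-KO it moved from -0.33 to 0.12 for Gata3, -0.42 to 0.24 for Krt7, -0.40 to 0.29 for Krt8 and -0.29 to 0.39 for Krt18. For siStag1 it moved from -0.27 to 0.42 for Cdx2 and -0.55 to 0.023 for Krt19, and for siStag2 from -0.46 to 0.054 for Krt7, -0.39 to 0.20 for Krt8 and -0.36 to 0.21 for Krt18. The interaction moved from -0.78 to 0.87 for Cdx2, -0.54 to 0.031 for Hand1, -0.069 to 0.53 for Gata3, -0.45 to 0.21 for Krt7, -0.42 to 0.28 for Krt8 and -0.28 to 0.40 for Krt18. Without replicate 1, signs turned for Hand1 (-0.41) and Krt8 (-0.002) in WT siPds5b, Cdx2 with siStag1 (-0.39) and the Hand1 interaction (0.046), and with a replicate block for Krt18 in WT siPds5b (0.001) and for Krt8 (0.094) and Krt18 (0.083) with siStag2. Depth limits Cdx2 and Elf5 most, and 3 libraries of 1 clone limit every comparison of genotypes.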
